A study of Homo sapiens with 39 samples.

Results

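The genes examined here encode subunits of respiratory complexes I, III and IV and of the ATP synthase (complex V). They were chosen by symbol from the target genes of a whole-genome CRISPR knockout library: NDUFA, NDUFB, NDUFC, NDUFS or NDUFV followed by a number, or a name starting with UQCR, with COX and a digit from 4 to 8, or with ATP5. The rule found 81 of 19113 genes and 324 of 77441 guides, 4 guides per gene. Complex I had 36 of them, complex III had 9, complex IV had 18 and complex V had 16. ATP5S, which is not a structural subunit, and ATP5J2-PTCD1, a read-through locus of ATP5J2 with its neighbour PTCD1, were caught by name and belong to none of the complexes. NDUFA4, once listed with complex I, was counted with complex IV. All 81 genes and all 324 guides passed the filter on low counts.

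The screen was run in A375, a melanoma line with an activating BRAF mutation, in which MED12, a subunit of the Mediator coactivator complex, had been knocked out in every group. The 5 groups were vemurafenib (an inhibitor of mutant BRAF, 2 µM) at day 14, vemurafenib at day 8, DMSO at day 14, DMSO at day 8 and the untreated start at day 0, each with 3 libraries, 15 of the 39 libraries of the series. Cells grew in DMEM with fetal bovine serum, and each guide's reads were counted after PCR from genomic DNA, so the values are guide abundance and not expression. The smaller epigenetic library of the series held 0 of these genes. Cells with intact MED12 were not part of the whole-genome screen, and the labels do not say whether the knockout is a single clone or a pool.

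The respiratory chain passes electrons from NADH and succinate to oxygen. Complex I oxidises NADH, complex III carries electrons from ubiquinol to cytochrome c, and complex IV reduces oxygen. All of these pump protons, and the ATP synthase lets protons flow back through a membrane ring of c subunits to drive ATP production in its F1 head. In a pooled knockout screen, guides become rarer when loss of their target slows growth or survival and more common when it favours them.

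Library depth was 47766947 to 87591804 reads, lowest in replicate 1 of day-14 vemurafenib. Guides under 10 reads made up 16.5 to 18.2% of the library at day 14 in vemurafenib, 12.5 to 13.7% at day 14 in DMSO, 3.26 to 4.24% at day 8 in vemurafenib, 3.88 to 4.46% at day 8 in DMSO and 0.385 to 0.443% at day 0. Libraries with the same replicate number deviated together from their group means, so changes are taken within a replicate number and given with the SD of the 3 replicates. The unit is the gene score, the mean over 4 guides of log2 CPM (reads scaled to a common library total with TMM, edgeR's normalization) with 0.5 added. The median gene score was 1.77, 1.72 and 1.79 at day 14 in vemurafenib, 1.98, 1.87 and 1.96 at day 14 in DMSO, and 2.54, 2.54 and 2.51 at day 0. Guides without a named target moved the other way, with a median of 4.87 to 4.89 log2 CPM at day 14 in DMSO against 4.30 to 4.36 at day 0. Gene scores below are therefore given relative to the median gene of the same library, so that 0 marks that gene.

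None of the 81 genes passed in any comparison. The test ranked guides by edgeR's quasi-likelihood p, combined the ranks of a gene by robust rank aggregation (RRA) and adjusted over 19101 genes by Benjamini-Hochberg, with a threshold of 0.05. At day 8 in DMSO against day 0 it called 0 members and 0.262% of all genes tested, and 7 members had an unadjusted p under 0.05 (8.64% of members, against 8.09% of all genes). At day 14 in DMSO against day 0 it called 0 members and 0.152% of all genes, with 8 members under an unadjusted p of 0.05 (9.88% of members, against 7.70% of all genes). For the same comparisons DESeq2's Wald test in place of edgeR also called 0 members, with 5 and 6 under an unadjusted p of 0.05 (7.76 and 7.50% of all genes), and edgeR with the replicate number as a block called 0, with 6 and 9 (9.15 and 8.62% of all genes). These p-values rest on 3 libraries per group that the labels do not describe as separate infections, so they may measure a technical spread. Without the block, the edgeR and DESeq2 fits ignore the pairing and count differences between replicate numbers in that spread. A p above the threshold does not show that abundance did not differ.

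After 14 days in DMSO, complex V had the lowest median change in replicates 1 and 3, and complex IV had the highest in all 3. Without its isoform and paralog genes complex IV was highest in replicate 2 only (medians of -0.21, 0.72 and -0.64 over 11 genes). At day 14 in DMSO minus day 0, the median gene of complex V changed by -1.25, -0.07 and -0.93 in replicates 1, 2 and 3, and that of complex III by -0.13, -0.56 and -0.40. The median gene of complex I changed by -0.27, -0.33 and -0.08, and that of complex IV by 0.44, 0.69 and 0.23. Over all genes tested the same medians were -0.05, -0.02 and -0.02. Replicate 2 of complex V lay close to all genes, so the order of complexes I, III and V was not the same in every replicate. At day 8 the medians were -0.47, -0.22 and -0.50 for complex V, -0.15, -0.34 and -0.71 for complex III, -0.23, -0.40 and -0.09 for complex I and 0.09, 0.30 and 0.13 for complex IV. All 4 complexes lay above the mitochondrial ribosome, whose 78 genes had medians of -1.81, -1.99 and -1.94 at day 14, and the cytosolic ribosome, with -2.79, -2.45 and -3.03 over 79 genes. These medians describe 3 replicates and carry no test.

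**Figure D1:**
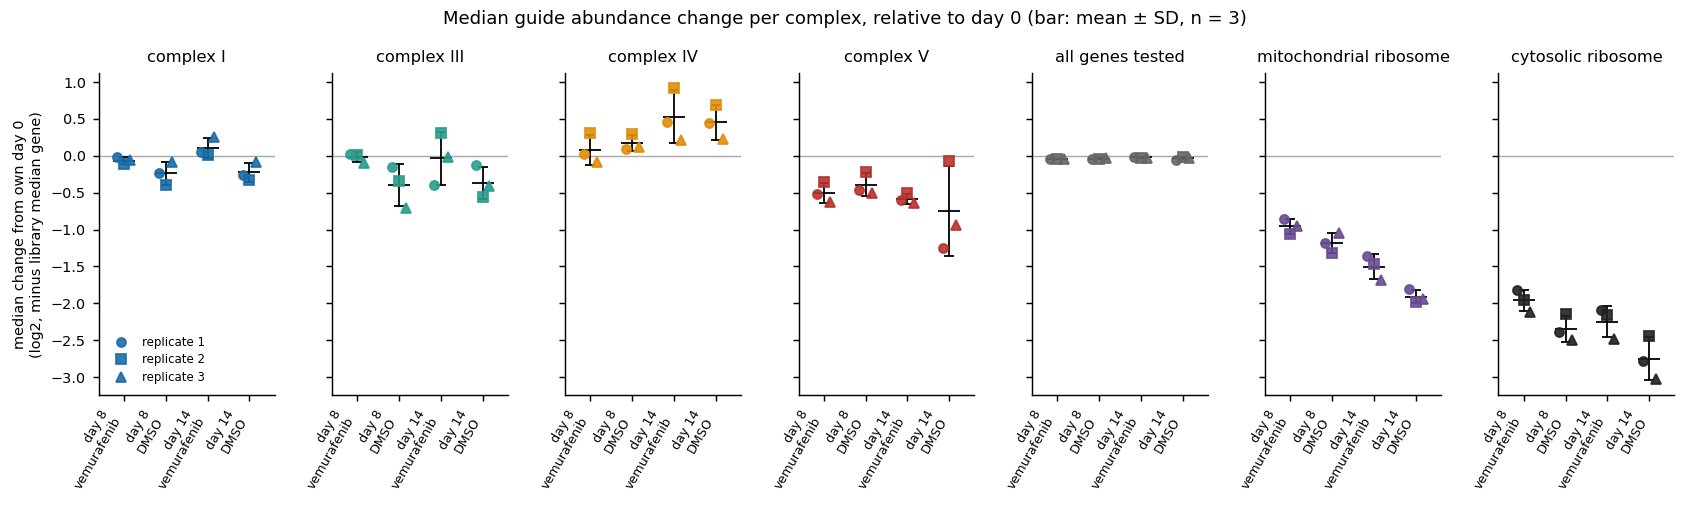
Each panel plots, for 1 gene group, the median change in gene score from day 0 of the same replicate number (y axis, log2, relative to the median gene of the library) at days 8 and 14 in vemurafenib and in DMSO. Points are replicates 1, 2 and 3 and bars are mean ± SD. Complex IV lies above 0 at day 14, complex V below it, and both ribosome groups lie lowest.

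Within complex V, 13 of 16 genes lay below the all-gene median change at day 14 in DMSO. Of these 16 genes, 6 were below 0 in all 3 replicates (22.6% of all genes tested were) and 0 were above 0 in all 3 (20.8% of all genes). ATP5G1, the 1 c-ring gene of 3 with such a pattern, had gene scores of -5.23, -4.81 and -2.90 at day 14 in DMSO, against -1.74, -1.20 and -0.81 at day 0. The groups did not overlap, and the change averaged -3.06 ± 0.84 (SD, n = 3), the lowest of all members. Its RRA result did not pass (edgeR/RRA adjusted p = 0.945), and its guides differed. Guide 1 had 0 reads in each day-14 DMSO library against 95, 116 and 204 at day 0, while guide 2 had 1, 298 and 221 reads against 132, 474 and 341. The other c-ring genes encode the same mature protein and had 0.38 ± 1.89 for ATP5G2 and -0.62 ± 1.37 for ATP5G3. In these, single replicates reached -1.60 and 2.17 for ATP5G2 and -2.19 for ATP5G3, so neither mean exceeds its spread.

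The peripheral stalk, which holds the F1 head still, had median changes of -1.72, -1.22 and -0.89 over its 4 genes. ATP5H (subunit d) changed by -1.09, -2.33 and -2.42, and ATP5O (the oligomycin sensitivity subunit) by -2.94, -1.15 and -0.49. ATP5O had all 4 guides lower and the lowest p of complex V, yet did not pass (edgeR/RRA adjusted p = 0.440, unadjusted p = 0.0113). ATP5J (coupling factor 6) and ATP5F1 (subunit b) averaged -0.96 ± 1.45 and -0.80 ± 0.79. Averaged over replicates, most genes of the F1 head were closer to the median gene. This did not hold in replicate 3, where all 5 head genes changed by less than 0. ATP5A1 (alpha) averaged 0.41 ± 1.06, ATP5B (the catalytic beta) 0.13 ± 1.48, ATP5E (epsilon) -0.28 ± 0.59, ATP5C1 (gamma) -0.55 ± 0.34 and ATP5D (delta) -1.32 ± 0.65. Of the 5 head genes, ATP5C1 and ATP5D were below 0 in all 3 replicates. In the membrane part, ATP5J2 (subunit f) averaged -2.65 ± 1.57, ATP5L (subunit g) -0.53 ± 0.60, its paralog ATP5L2 -1.13 ± 1.59 and ATP5I (subunit e) -0.33 ± 1.36. ATP5S, known as factor B, changed by -1.52, -2.45 and 2.03. The read-through locus ATP5J2-PTCD1, whose guides may cut ATP5J2 or PTCD1, averaged -0.98 ± 1.67. Guide sequences were not used here, so which guides of such overlapping or near-identical genes share a target is uncertain.

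**Figure D2:**
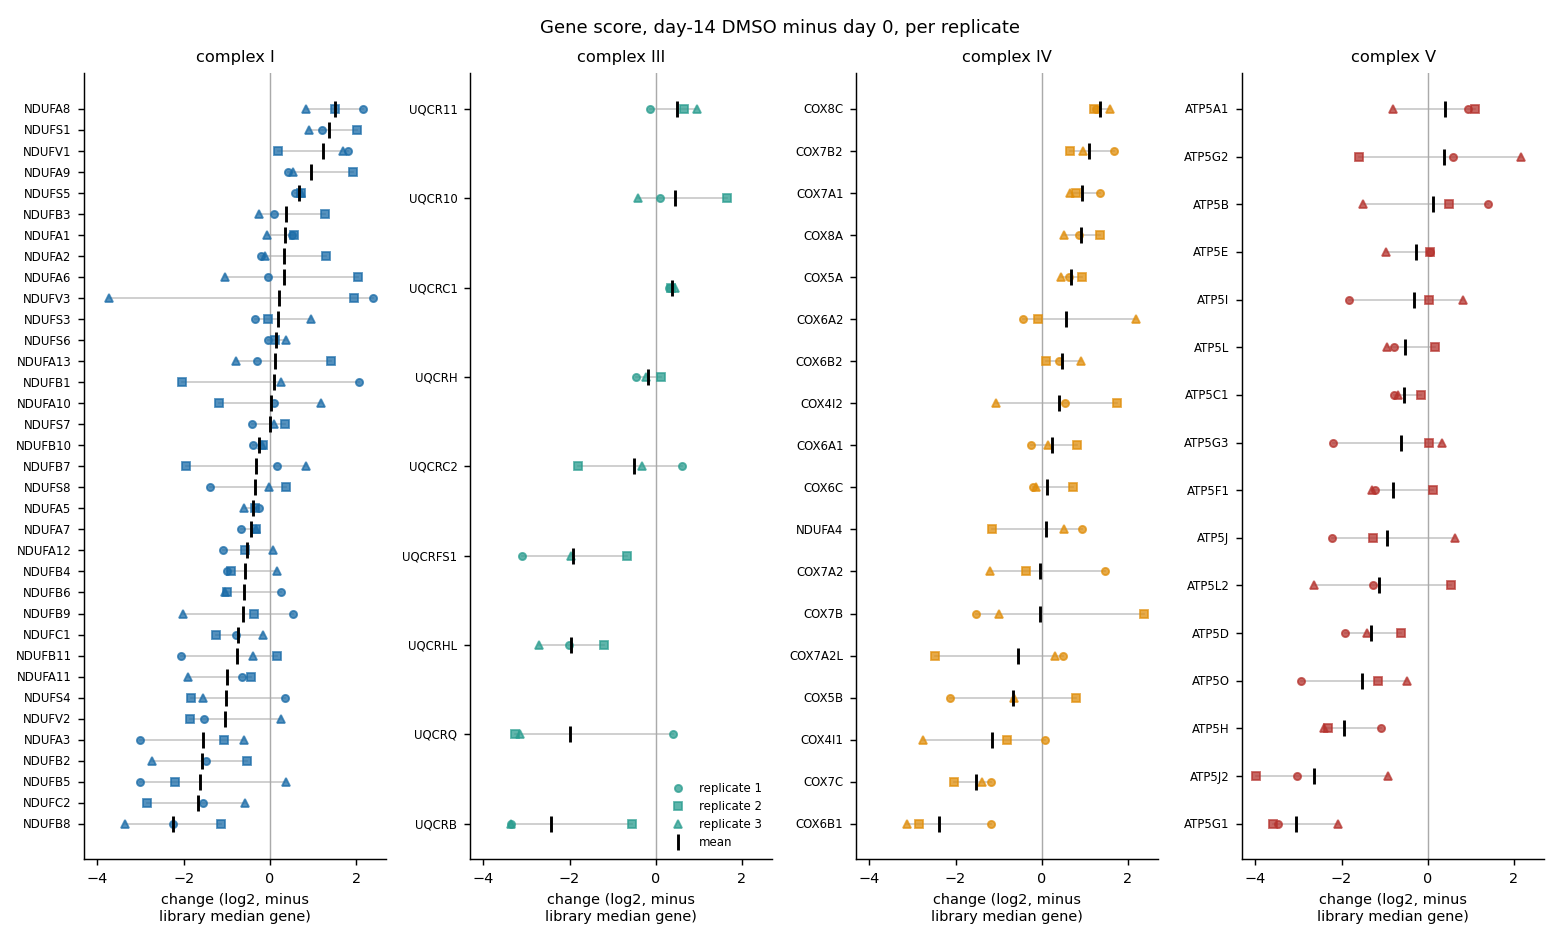
Each row is 1 gene, and points give its change in gene score at day 14 in DMSO minus day 0 (x axis, log2, relative to the median gene of the library) in replicates 1, 2 and 3, with the mean as a bar, for the genes reported here. By their means most complex V genes lie left of 0, but in replicate 2 many of them lie right of it. The highest complex IV genes, COX8C and COX7B2, lie right of 0 in all 3 replicates.

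Complex I members are grouped by their position in the enzyme. The 20 accessory genes of the membrane arm had medians of -0.34, -0.72 and -0.21 at day 14 in DMSO minus day 0, the 9 accessory genes of the matrix arm -0.06, 0.12 and -0.33, and the 7 core genes -0.42, 0.18 and 0.49. Replicates within each class differ by as much as the classes do. Of the 36 genes 9 were below 0 in all 3 replicates (NDUFB8, NDUFC2, NDUFB2, NDUFA3, NDUFA11, NDUFC1, NDUFA7, NDUFA5 and NDUFB10) and 5 above (NDUFA8, NDUFS1, NDUFV1, NDUFA9 and NDUFS5). Over all genes tested 22.6% were below 0 in all 3 replicates and 20.8% above, so these counts do not set complex I apart. Among the named genes NDUFC2 averaged -1.66 ± 1.15, NDUFA9 0.96 ± 0.83 and NDUFS5 0.67 ± 0.084. The widest spread was that of NDUFV3, with 2.38, 1.94 and -3.73 in replicates 1, 2 and 3. NDUFB8, a membrane-arm accessory subunit, was lowest at -2.26 ± 1.11 and did not pass (edgeR/RRA adjusted p = 0.966). NDUFA8, also of the membrane arm, had the lowest p and the highest mean of the complex. Its gene scores were 2.16, 1.90 and 1.06 at day 14 in DMSO, against 0.01, 0.38 and 0.22 at day 0, with no overlap. The changes were 2.15, 1.52 and 0.83 (mean 1.5 ± 0.66, SD, n = 3), and the gene did not pass (edgeR/RRA adjusted p = 0.387). Guide 1 of NDUFA8 had 12.1, 51.2 and 58.8 CPM at day 14 in DMSO against 5.32, 9.71 and 7.35 at day 0, whereas guide 3 had 24.8, 2.94 and 3.05 CPM against 4.89, 4.43 and 4.85.

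The core subunits of complex I went both ways. NDUFS1, the large iron-sulfur subunit, averaged 1.38 ± 0.58 and NDUFV1, which binds NADH and flavin, 1.23 ± 0.91. Both were above 0 in all 3 replicates, and neither passed (edgeR/RRA adjusted p = 0.695 and 0.476). NDUFS3 averaged 0.19 ± 0.67, NDUFS7 0.01 ± 0.40 and NDUFS8 -0.35 ± 0.93. NDUFV2, an iron-sulfur neighbour of NDUFV1, averaged -1.04 ± 1.14, below 0 in replicates 1 and 2 and above 0 in replicate 3.

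Complex III held both low genes and genes near the median at day 14 in DMSO. UQCRB, an accessory subunit near the quinone site, had gene scores of -4.32, -0.93 and -4.29 at day 14 in DMSO, against -0.97, -0.38 and -0.92 at day 0. Replicates 1 and 3 were far below day 0 and replicate 2 was close to it. All 4 guides were lower and the change averaged -2.43 ± 1.62, which did not pass (edgeR/RRA adjusted p = 0.515). UQCRFS1, the Rieske iron-sulfur protein, averaged -1.91 ± 1.22, and UQCRQ changed by 0.41, -3.26 and -3.15. The core proteins UQCRC1 and UQCRC2 averaged 0.37 ± 0.066 and -0.50 ± 1.21, and UQCR10 and UQCR11 averaged 0.45 ± 1.08 and 0.49 ± 0.56. UQCRH, the hinge protein at cytochrome c1, averaged -1.38 ± 0.30 at day 8 and -0.19 ± 0.30 at day 14. Its guide 1 had 0 reads in each day-8 DMSO library against 99, 50 and 55 at day 0, while the other 3 guides had log2 fold changes above 0 (median over the 4 guides 0.27). UQCRHL, an intronless near-copy of UQCRH, averaged -0.85 ± 0.45 at day 8 and -1.98 ± 0.74 at day 14, below 0 in all 3 replicates at both days. Neither gene passed, and guides against one copy may also cut the other.

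The nuclear-encoded subunits of complex IV include broadly expressed ones, some of which have a tissue-restricted isoform. The 11 broadly expressed genes had medians of -0.21, 0.72 and -0.64 at day 14 in DMSO minus day 0, and the 7 isoform or paralog genes 0.54, 0.66 and 0.91. COX8C, the testis isoform of subunit 8, averaged 1.35 ± 0.20 and COX8A, the broad form, 0.90 ± 0.42. COX7B2, the testis isoform of subunit 7b, averaged 1.10 ± 0.53 and COX7B -0.05 ± 2.11. COX7A1, the muscle isoform of subunit 7a, averaged 0.93 ± 0.37, COX7A2 -0.04 ± 1.36 and COX7A2L, a related supercomplex factor, -0.56 ± 1.66. The wide spread of COX7B and COX7A2 comes from replicates of opposite sign. The isoform genes COX8C, COX7B2, COX7A1 and COX6B2 were above 0 in all 3 replicates, as 20.8% of all genes tested were. So were the broadly expressed genes COX8A and COX5A, whereas the isoform or paralog genes COX4I2, COX6A2 and COX7A2L were not. Without centring COX8C and COX7A1 were higher than at day 0 in all 3 replicates, but COX7B2, COX6B2, COX8A and COX5A were not. For subunit 6b the broad form COX6B1 averaged -2.39 ± 1.06 and the testis isoform COX6B2 0.47 ± 0.41. For subunit 6a the broad form COX6A1 averaged 0.23 ± 0.55 and the muscle isoform COX6A2 0.55 ± 1.42. For subunit 4 the broad form COX4I1 averaged -1.16 ± 1.45 and the lung isoform COX4I2 0.41 ± 1.41. COX6B1 and COX6B2 did not overlap between replicates, and those of the COX6A and COX4 pairs did. COX5A, COX5B, COX6C and COX7C, which have no second gene here, averaged 0.67 ± 0.24, -0.66 ± 1.46, 0.13 ± 0.52 and -1.54 ± 0.44. NDUFA4 averaged 0.10 ± 1.11, with 2 guides higher and 2 lower. None of the complex IV genes passed, and the edgeR/RRA adjusted p was 0.540 for NDUFA4, 0.644 for COX7B2 and 0.715 for COX6B1.

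At day 8 in DMSO minus day 0 the members with the lowest p also lay on both sides of 0. ATP5G1, whose p was not among these, averaged -2.20 ± 0.98 there, and ATP5D and ATP5O had the lowest p of complex V genes, at -0.83 ± 0.16 and -0.75 ± 0.87 (edgeR/RRA adjusted p = 0.568 and 0.428). UQCRB of complex III averaged -1.08 ± 0.89 (edgeR/RRA adjusted p = 0.392). NDUFA8 and NDUFV1 of complex I averaged 0.71 ± 0.27 and 0.45 ± 0.70 (edgeR/RRA adjusted p = 0.402 and 0.572), and COX7B2 and NDUFA4 of complex IV 0.56 ± 0.31 and -0.30 ± 0.69 (edgeR/RRA adjusted p = 0.655 and 0.689). For NDUFA4 that p belongs to the upward direction, opposite to its mean change. Its median guide log2 fold change was 0.42, with 2 guides lower and 2 higher. None of these passed.

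The share of guides that were nearly lost also differed between complexes. At day 14 in vemurafenib 26.6, 18.8 and 20.3% of the 64 complex V guides had under 10 reads, and at day 14 in DMSO 20.3, 17.2 and 21.9%. Complex IV had 16.7, 12.5 and 11.1% of 72 guides at day 14 in vemurafenib and 9.72% in each of the 3 DMSO libraries. Complex I had 13.9, 12.5 and 16.7% of 144 guides in vemurafenib and 9.03, 12.5 and 11.8% in DMSO, and complex III had 16.7, 8.33 and 25% of 36 guides in vemurafenib and 16.7, 11.1 and 16.7% in DMSO. Over guides of all genes tested the shares were 18.4, 17.6 and 16.6% in vemurafenib and 12.7, 13.9 and 13.1% in DMSO. Complex V was above all genes in every day-14 library and complex IV, with its isoform and paralog genes, below in every one. Complex I was also below, except in replicate 3 of day-14 vemurafenib. At day 0, 0 of the 324 guides were under 10 reads. A guide at 0 reads could have gone lower only with more depth, so gene scores of such genes are limited from below.

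**Figure D3:**
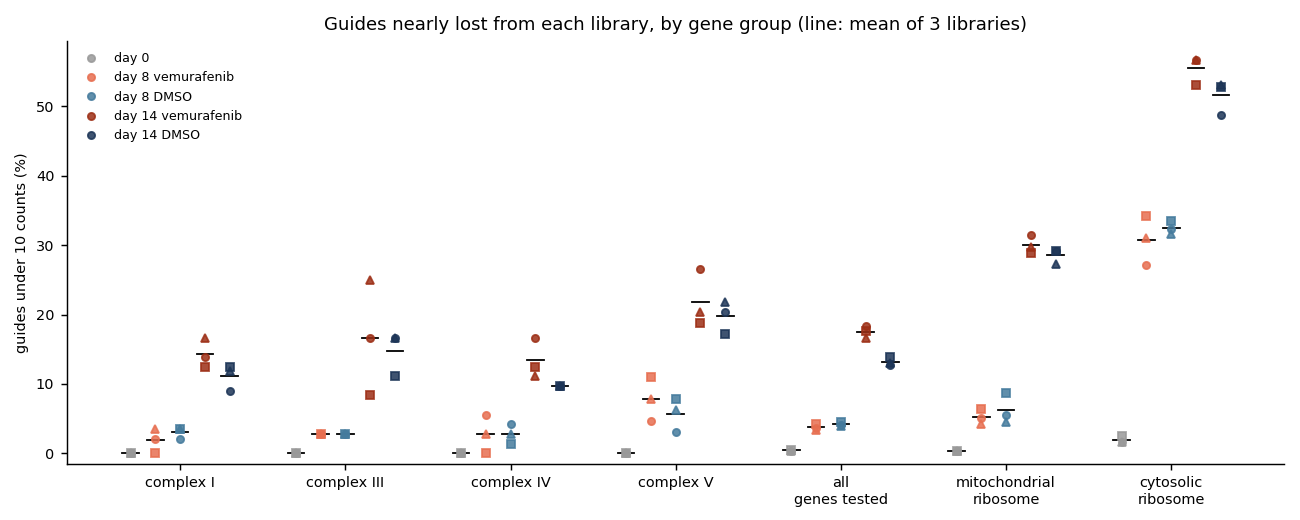
The y axis gives the percentage of guides with under 10 reads in each library, by gene group on the x axis, with colours for the 5 groups, symbols for replicates 1, 2 and 3 (circle, square, triangle) and a line at the mean of 3 libraries. At day 14 complex V lies above all genes tested and complex IV below, and the cytosolic ribosome lies above both.

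The drug comparison asks whether losing a subunit changes survival or growth under BRAF inhibition. For vemurafenib against DMSO at day 8 edgeR/RRA called 0 members and 0.0262% of all genes tested, with 5 members under an unadjusted p of 0.05 (5 by DESeq2, 8 with the replicate block). Of all genes 5.61% were under that p, 5.62% by DESeq2 and 5.80% with the block. At day 14 it called 0 members and 0% of all genes tested, with 5 members under an unadjusted p of 0.05 (6 by DESeq2, 7 with the block), against 5.25, 5.20 and 5.28% of all genes by the same 3 fits. The median differences of vemurafenib minus DMSO at day 8 were 0.09, 0.30 and 0.12 for complex I, -0.10, 0.36 and 0.17 for complex III, -0.07, 0.01 and -0.04 for complex IV and -0.22, -0.23 and -0.06 for complex V, against 0.02, 0.04 and 0.00 for all genes. At day 14 they were 0.26, 0.16 and 0.32 for complex I, 0.36, 0.43 and 0.41 for complex III, 0.26, 0.36 and -0.03 for complex IV and 0.12, 0.41 and -0.04 for complex V, against 0.13, 0.10 and 0.09 for all genes. The cytosolic ribosome had 0.70, 0.77 and 0.22 and the mitochondrial ribosome 0.46, 0.35 and 0.19, so differences of this size were shared with genes outside the respiratory chain.

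COX4I1, the broad form of complex IV subunit 4, had the lowest p of all members at both days. Its gene scores were -0.05, 0.22 and -1.37 at day 8 in vemurafenib, against -0.57, -0.82 and -3.70 in DMSO. At day 14 they were 0.86, -0.03 and -1.96 in vemurafenib, against -0.89, -1.67 and -3.65 in DMSO. The groups overlapped, with replicate 3 low in both, and within each replicate number vemurafenib was higher. The difference averaged 1.30 ± 0.93 at day 8 and 1.70 ± 0.055 at day 14, and all 4 guides had a positive log2 fold change at both days. Neither passed (edgeR/RRA adjusted p = 0.354 at day 8 and 0.694 at day 14, and 0.287 and 0.771 with the replicate block), and over the 26 settings tried the adjusted p ranged over 0.287 to 1 at day 8 and 0.334 to 1 at day 14. Guide 4 had 12.7, 1.31 and 5.50 CPM at day 14 in vemurafenib against 2.33, 0.731 and 3.72 in DMSO, and guide 1 had 10.0, 12.5 and 25.1 CPM against 12.0, 5.00 and 6.63. Guide 2 had 119, 15.9 and 0.0886 CPM in vemurafenib against 78.8, 16.5 and 0.0221 in DMSO, so within replicates it differed far less than between them.

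**Figure D4:**
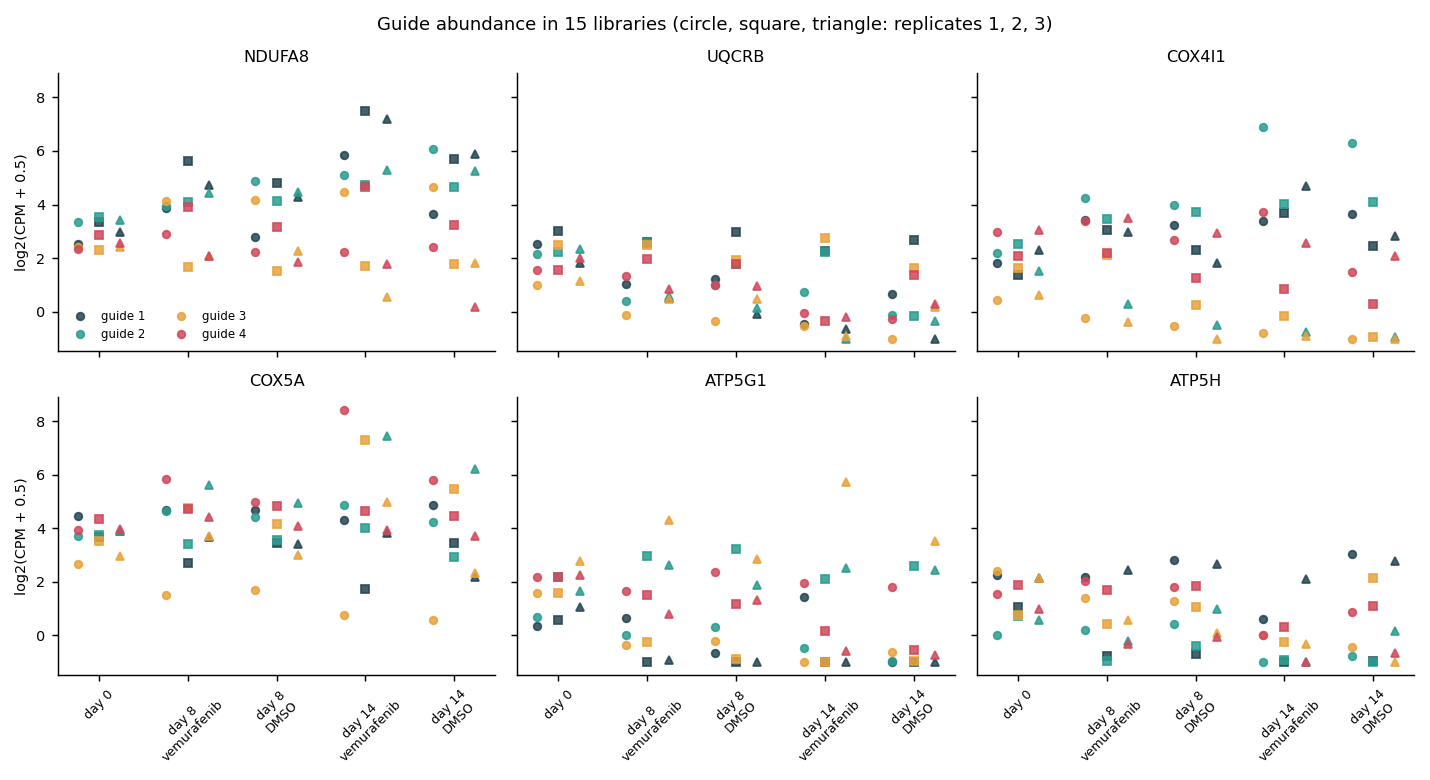
Each panel plots the 4 guides of 1 gene (colours) in 15 libraries, as log2(CPM + 0.5) on the y axis, with the groups on the x axis and replicates 1, 2 and 3 as circle, square and triangle. Guides of a gene spread widely within a library by day 14, and ATP5G1 has guides near 0 CPM beside guides that stayed abundant.

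Other members differed less. COX5A, another broadly expressed subunit of complex IV, had gene scores of 2.68, 2.63 and 3.23 at day 14 in vemurafenib, against 1.73, 2.16 and 1.56 in DMSO. The groups did not overlap, and the difference of 1.03 ± 0.60 did not pass (edgeR/RRA adjusted p = 0.936). ATP5H, the peripheral stalk subunit d, had -3.64, -4.88 and -4.77 at day 14 in vemurafenib, against -2.45, -4.16 and -3.78 in DMSO. Vemurafenib was lower in each replicate number, by -0.96 ± 0.24 on average with all 4 guides lower, and it did not pass (edgeR/RRA adjusted p = 0.759). UQCRHL averaged 0.64 ± 0.12 at day 8 and 1.48 ± 0.56 at day 14 for vemurafenib minus DMSO, with adjusted p = 0.817 and 0.966 by edgeR/RRA. In complex I, NDUFA2 of the matrix arm averaged 1.12 ± 1.06 at day 14 and NDUFB7 of the membrane arm 0.51 ± 0.19 at day 8, with edgeR/RRA adjusted p = 0.858 and 0.734. NDUFA7 at day 8 averaged 0.42 ± 0.35, NDUFB6 at day 14 0.46 ± 0.64 and UQCR11 at day 14 -0.29 ± 0.050. In complex V, ATP5A1 and ATP5I averaged -0.53 ± 0.32 and -0.68 ± 0.33 at day 8, and ATP5O 0.14 ± 1.97 at day 14. At day 14, 16 of 81 members were higher with vemurafenib in all 3 replicates (18.2% of all genes tested were) and 6 were lower in all 3 (10.3% of all genes).

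**Figure D5:**
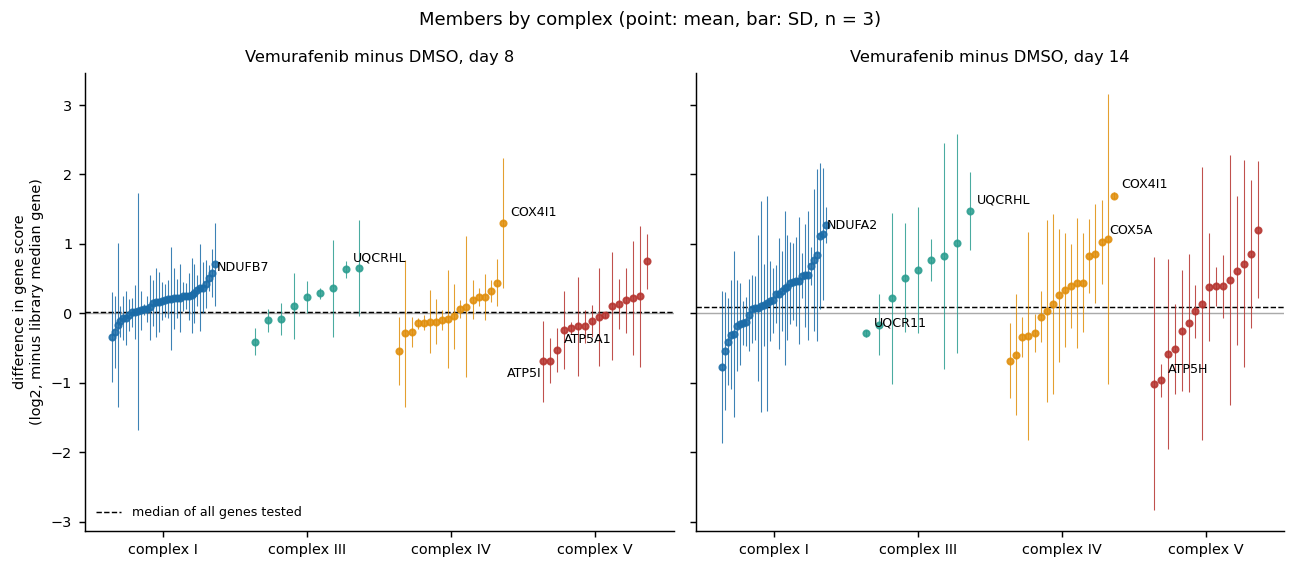
Each point is 1 gene, with the mean difference in gene score of vemurafenib minus DMSO on the y axis (log2, relative to the median gene of the library), SD bars over 3 replicates, and genes ordered by value within their complex on the x axis. Panels are days 8 and 14, and COX4I1 stands highest at both.

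The difference between the drug effects of day 14 and day 8 called 0 members and 0% of all genes tested, with 2 members under an unadjusted p of 0.05 by edgeR/RRA, 5 by DESeq2 and 4 with the block, against 5.33, 5.27 and 5.33% of all genes. From day 8 to day 14 in DMSO edgeR/RRA called 0 members and 0.0419% of all genes, with 6 members under an unadjusted p of 0.05 (8 by DESeq2, 8 with the block), against 6.89, 6.85 and 6.64% of all genes. Vemurafenib at day 8 against day 0 called 0 members and 0.194% of all genes. There 5 members were under an unadjusted p of 0.05 by edgeR/RRA, 4 by DESeq2 and 5 with the block, against 7.06, 6.84 and 8.54% of all genes. Vemurafenib at day 14 against day 0 called 0 members and 0.0524% of all genes. There 8 members were under that p by edgeR/RRA, 8 by DESeq2 and 7 with the block, against 6.72, 6.55 and 7.09% of all genes. The median changes of vemurafenib at day 14 minus day 0 were -0.59, -0.51 and -0.64 for complex V, -0.40, 0.31 and -0.01 for complex III, 0.05, 0.01 and 0.26 for complex I and 0.46, 0.92 and 0.21 for complex IV. Complex V was lowest in every replicate, and complex IV was highest in replicates 1 and 2. These values share the day-0 libraries with the DMSO values above.

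Mean abundance per gene gave calls that rank aggregation did not. limma on gene scores relative to the median gene, with the replicate number as a block, was added after the edgeR/RRA counts had been seen. At day 14 in DMSO against day 0 it called 15 members lower, against 14.2% of all genes tested, and 5 higher, against 8.79%. The 15 were ATP5G1, ATP5H, ATP5J2 and ATP5D of complex V, UQCRB, UQCRFS1, UQCRQ and UQCRHL of complex III, COX6B1 and COX7C of complex IV, and NDUFB8, NDUFB2, NDUFA3, NDUFB5 and NDUFC2 of complex I. The 5 were NDUFA8, NDUFS1, NDUFV1, COX8C and COX7B2. In limma these 5 calls depended on the centring. On gene scores without centring, with or without the block, it called members lower only. With so many genes called in all, a share of members near that of all genes is not a result about the respiratory chain. For vemurafenib against DMSO the same test called 0 members at day 8, where it called 0% of all genes, and 0 at day 14, where it called 0.00524% of all genes in each direction.

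Genes around the respiratory chain were examined in 13 further lists. Subunits outside the naming rule included CYC1, the cytochrome c1 subunit of complex III, at -1.32 ± 1.24 for day 14 in DMSO minus day 0, and NDUFAB1, the acyl carrier protein of complex I, at -1.31 ± 2.69. None of these 6 passed. Each list median below is taken over genes, of the change averaged over replicates, so it differs from the medians per replicate given above. The 7 complex II genes had a median of -0.65, the 21 complex IV assembly genes -0.81, the 6 complex III assembly genes -1.07 and the 15 complex I assembly genes 0.08, with 0 calls in each. The 3 complex V assembly genes had a median of 0.10, the 10 genes of ubiquinone synthesis and cytochrome c -0.22, the 17 pyruvate and citric acid cycle enzymes 0.19 and the 9 regulators of mitochondrial biogenesis -0.03, also with 0 calls. The 11 genes of mitochondrial DNA upkeep and transcription had a median of -2.32 and 1 call. That was TWNK, the mitochondrial DNA helicase, which fell by 6.56 ± 0.74 at day 14 in DMSO against day 0 (edgeR/RRA adjusted p = 0.00180) and fell by 3.37 ± 0.11 at day 8 (edgeR/RRA adjusted p = 0.0118). The 78 mitochondrial ribosome genes had 0 calls with a median of -2.11. Among 18 glycolysis and lactate genes GAPDH, a glycolytic enzyme, fell by 6.04 ± 0.36 at day 14 (edgeR/RRA adjusted p = 0.00318, which the block by replicate number turned to 0.0844). Of the 79 cytosolic ribosome genes 5 fell at day 8 and 2 at day 14, among them RPL27 and RPL19. Of all genes tested 0.262 and 0.152% were called in either direction. With the block by replicate number 8 passed at day 8 and 1 at day 14. The block also moved the calls among all genes from 50 to 110 at day 8 and from 29 to 24 at day 14. RPL13A, RPL23 and RPS20 at day 8 and RPL27 at day 14 no longer passed (edgeR/RRA adjusted p = 0.0739, 0.126, 0.0887 and 0.130). PPARGC1A, a regulator of mitochondrial biogenesis, and MITF, the melanocyte factor upstream of it, did not pass, with 0.44 ± 1.06 and 0.69 ± 1.05 for vemurafenib minus DMSO at day 14.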

How the data were processed

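Guide abundance was measured in 15 libraries of MED12 knockout A375 cells (5 groups of 3). The tables the authors deposited hold unnormalized counts of reads for every guide. The submitters' processing notes name HTSeq, HISAT2 and bcl2fastq, with versions not given in the sources used here. In R 4.3.3, edgeR 4.0.16 filtered guides (filterByExpr, minimum count 10, minimum total 15, leaving 77158), scaled with TMM and tested contrasts 2-sided by quasi-likelihood with 1 mean per group. Guide ranks were combined per gene by RRA (alpha 0.25, exact null), p being 2 times the smaller of both directions, and adjusted by Benjamini-Hochberg over 19101 genes with at least 3 guides. DESeq2 1.42.0 and limma 3.58.1 gave alternatives.

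Members, gene lists and tests were chosen with earlier results of these data known. Per contrast and complex the 2 members with the lowest p are named where none passes, and isoform pairs, core complex I genes, PPARGC1A and MITF always. Every other member may be named with its value, and 1 is not reported here by name. Symbols are printed as deposited. Of the 81, 62 are current in RefSeq (GRCh38.p14), 18 are older names and 1 (NDUFA4) matched no single gene. Deviations from group means correlated at 0.460 to 0.843 between same-numbered libraries (30 pairs), so the numbers were taken to pair libraries. Between others they correlated at -0.451 to -0.207, and subtracting a mean of 3 libraries by itself pushes these values below 0. By gene score, 12 of 15 libraries correlated best with a library of the same number. PCR reads are not independent molecules. No guide sequences were used here.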

Additional observations from a re-analysis of the deposited data

How the results depend on the processing

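Under edgeR/RRA the count of called members was 0 in all 8 contrasts with every left-out library (range 0 to 0), with the replicate block, with DESeq2's size factors, its Wald test, scaling on untargeted guides, no filter, and only the libraries of a contrast. The block moved all-gene calls at day 8 in DMSO to 98 lower, against 45 without it. Gene-level summaries gave other counts. Each is set beside the share of all genes tested that the same fit called in that direction. For day 14 in DMSO against day 0, limma on gene scores called 7 members lower (9.95% of all genes), 25 with the replicate block (27.3%), and 15 lower (14.2%) and 5 higher (8.79%) on centred scores with the block. Counts summed per gene called 1 higher (1.28%), and 2 lower (1.84%) and 4 higher (11.8%) with the block. For day 14 in vemurafenib against day 0, limma called 8 lower (13.6%) and 1 higher (0.628%), 28 (34.2%) and 3 (2.91%) with the block, and 11 (14.1%) and 13 (12.6%) on centred scores. Summed counts there called 1 lower (0.827%) and 18 higher (17.8%), 3 (3.52%) and 24 (28.4%) with the block. At day 8 in DMSO, limma with the block called 2 lower (4.68%), and 1 on centred scores (3.61%). The alternatives with a block on gene scores, centred scores and summed counts were chosen after seeing the data. The cause of these differences was not tested.

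Complex medians without centring, scaled on untargeted guides, were -0.88, -1.12, -0.56 and -0.99 for complexes I, III, IV and V at day 8 in DMSO, and -1.60, -1.77, -1.08 and -1.97 at day 14, by the construction of the scaling. All complex medians that follow are also without centring, so they are not comparable with the centred medians in the Results. Without centring, all genes tested had median changes of -0.18, -0.20 and -0.21 at day 8 in DMSO minus day 0. At day 14 these were -0.61, -0.69 and -0.58. Leaving out single libraries gave -0.78 to -0.27 for complex III and -0.19 to 0.0089 for complex IV at day 8 in DMSO, and -1.79 to -0.89 and -0.42 to -0.17 at day 14. For vemurafenib minus DMSO it gave -0.031 to 0.44, -0.054 to 0.17 and -0.20 to 0.034 for complexes III, IV and V at day 8, and -0.077 to 0.15, -0.034 to 0.80 and -0.33 to 0.28 for complexes I, III and V at day 14. DESeq2's size factors gave 0.21 and 0.61 for complexes I and III at day 14. Means over members gave -1.45 for complex III at day 14 in DMSO, 0.067 for complex IV at day 8 and 0.38 for complex III at day 14 of the drug contrast. Broadly expressed complex IV genes alone gave -0.63 at day 14 in DMSO and 0.069 for the drug at day 8. The 32 named-gene results were recomputed 832 times in all. Of these values 16 newly passed the threshold, all in gene-level fits (limma or summed counts). They belonged to ATP5O, COX7B2, NDUFA8, NDUFV1, UQCRB and UQCRHL at day 14 in DMSO and UQCRH at day 8. The shares of all genes that these fits called are given above. Of the 832 values 41, in 13 results, had the opposite sign of edgeR's median guide log2 fold change, so the direction of such genes is not stable. The direction of the test itself turned in 14 values of 7 results, none past the threshold. Summed counts gave 0.40 and, with the block, 0.31 for UQCRH at day 8 in DMSO, and 0.93 and 0.30 for ATP5A1 under the drug at day 8. limma, with and without the block, gave -0.46 and -0.50 for NDUFA4 at days 8 and 14 in DMSO (-0.30 on centred scores at day 8), -0.21 for ATP5G2 at day 14 in DMSO and -0.034 for ATP5O under the drug at day 14. For UQCRH under the drug at day 8, leaving out single libraries gave 0.038 to 0.47, the lowest without replicate 2 of day-8 vemurafenib. Guides at 0 reads limit how low a gene can be measured.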
